A study of Sorghum bicolor with 64 samples.

Results

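WRKY transcription factors were described in sorghum stems and leaves after head removal. WRKY proteins carry a DNA-binding domain named after its conserved WRKY residues, bind W-box elements in promoters, and are best known in plants for the control of defense, wounding, stress and senescence genes. Many are induced quickly and act downstream of MAP kinase cascades, and several are partners of calmodulin or of small VQ-motif proteins. Members were all genes whose deposited description names a WRKY factor, the WRKY domain or a WRKY protein family. There were 34 among the 16942 genes of the stem table and 44 among the 16386 genes of the leaf table, which make 54 different genes of 18832, with 24 in both tables, 10 in the stem table alone and 20 in the leaf table alone.

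The plants were field-grown near-isogenic lines of the D locus in the Tx623 background, which both genotypes share. The NAC factor *SbNAC074A* is functional in *DD* and truncated in *dd*. Plants were decapitated at anthesis or kept intact as controls, and the inner part of the fourth internode and the middle of the second leaf below the flag leaf were sampled 3 or 10 days later. This gave 8 groups per organ, with 3 or 4 biological replicates in stems (29 libraries) and 3 in leaves (24 libraries). The labels describe 3 further stem and 8 further leaf samples, which have no TPM column and were not analysed here. Values are TPM (transcript shares on a common total). The listed genes of a stem library added up to between 994406 and 996581, and those of a leaf library to between 994771 and 995806. TPM is scaled by transcript length and to a fixed total, and keeps no record of sequencing depth. The tables hold only genes above 3 TPM in at least 2 samples of the organ, so a member absent from a table was at or below that level.

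The organs matched their labels. The summed TPM of green-tissue genes (Rubisco small subunit, C4 enzymes and chlorophyll-binding proteins) was 21468 to 60907 in leaves and 2518 to 10745 in stems. Genes listed for secondary walls and xylem summed to 232 to 1541 TPM over 3 genes in stems and to 9.23 to 25.5 TPM for 1 gene in leaves. This list took laccases and any description of a cellulose synthase domain, so it may hold genes of other walls. Its sums cover different gene numbers in the 2 organs. Several stem groups were split on the second principal component. Decapitated *DD* stems at 3 days lay at 19.6 and 14.4 (replicates 1 and 3) and at -10.3 and -5.72 (replicates 2 and 4). Decapitated *dd* stems at 10 days lay at -0.322 and -2.31 (replicates 1 and 3) and at -27.6 and -23.2 (replicates 2 and 4). These splits were not left out as sets, and their part in the WRKY values was not tested. Libraries in 2 places were taken as standing apart from their groups. Replicates 3 and 4 of the *dd* control stems at 10 days lay on the side of the decapitated stems on the first principal component (9.52 and 9.15, against -25.0 and -23.0 for replicates 2 and 1). In leaves, the 3 *DD* decapitated libraries at 3 days had jasmonate ZIM-domain (JAZ) transcripts, 14 genes that encode repressors of jasmonate signaling, at a sum of 4991, 8245 and 4228 TPM, against 941 to 2804 TPM in the 21 others. Where these libraries decide a call or a rank, the value without them is given as well. Where the text below leaves out the libraries that stood apart, these are replicates 3 and 4 of those stems and replicates 2 and 3 of those leaves. Leaving out all 3 of the leaf libraries is stated where it was done.

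By description the 54 members fall into 4 kinds. A WRKY domain alone is listed for 29 members, out of 97 genes that share this description in the annotation, and these have no further name here. Another 17 are described by a numbered WRKY factor, and the numbers refer to Arabidopsis proteins of similar sequence rather than to proven equivalents. Next, 4 are described by a plant zinc cluster domain beside the WRKY domain (Sobic.001G095500, Sobic.001G162100, Sobic.007G085300 and Sobic.008G153600), the mark of the calmodulin-binding group of WRKY proteins in Arabidopsis. Each gene has a single description here, so members described by a number may carry that domain too. The remaining 4 are described by an NB-ARC domain, the nucleotide-binding domain of disease resistance proteins, or as disease resistance related (Sobic.001G282400, Sobic.002G104400, Sobic.002G168300 and Sobic.006G051700). Their identifiers place members on all 10 chromosomes, with 13 on chromosome 3 and 9 on chromosome 2. Some lie at consecutive identifiers (Sobic.002G174200 and Sobic.002G174300, Sobic.003G037400 and Sobic.003G037500), and reads could be split between near copies, which was not tested.

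The 2 organs had different leading members. In stems the WRKY13-related Sobic.003G040800 had the highest mean level, 120 ± 30.8 TPM (SD, n = 29). In Arabidopsis WRKY13 promotes stem development and lignification. It was followed by the zinc cluster member Sobic.001G095500 at 88.3 ± 39.9 TPM, the WRKY11-related Sobic.006G206000 at 65.9 ± 40.1 TPM, and Sobic.002G355000 at 62.4 ± 7.97 TPM. The next 4 were Sobic.001G282400, Sobic.001G162100, Sobic.001G389000 and Sobic.002G168300, at means from 30.6 down to 22.3 TPM. Neighbours in this order overlapped within 1 SD, except Sobic.002G355000 and Sobic.001G282400.

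Leaves were led by Sobic.004G065900 at 55.0 ± 62.0 TPM (SD, n = 24) and Sobic.009G068900 at 53.0 ± 33.1 TPM, followed by Sobic.006G206000 at 46.0 ± 14.8 TPM and Sobic.001G095500 at 38.3 ± 9.17 TPM. Then came Sobic.002G355000, Sobic.001G162100, Sobic.002G168300 and Sobic.003G037400, at means from 32.7 down to 30.1 TPM, and each neighbour lay within the spread of the next. The lead of Sobic.004G065900 came from the *DD* decapitated leaves at 3 days. Over the other 21 libraries it averaged 33.9 ± 11.4 TPM and stood 4th, behind Sobic.009G068900 (47.7 ± 26.6 TPM), Sobic.006G206000 (44.7 ± 14.7 TPM) and Sobic.001G095500 (39.5 ± 8.67 TPM). Sobic.004G065900 and Sobic.009G068900 were low in stems, at means of 2.75 and 3.16 TPM. The WRKY13-related gene was not in the leaf table, nor was the WRKY12-related Sobic.004G298400, related to an Arabidopsis repressor of secondary walls in the pith, which ranged from 2.78 to 29.0 TPM in stems. The latter was named after its values were seen.

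Head removal lowered many WRKY transcripts in stems and few of them rose. Of 34 members, 14 fell and 2 rose, which is 41.2 and 5.88% of members, against 23.5% of all genes that fell and 14.4% that rose. A call here is an adjusted p under 0.01 from limma on log2(TPM + 1), from an additive model of the 3 factors (treatment, genotype, day) with the Benjamini-Hochberg adjustment over all genes of the organ. The median log2 change of the members was -0.18, and that of all genes -0.06. Falls of at least 1 log2 unit were found in 2 members and a rise of that size in 1. Of the members that fell, 2, the WRKY40-related and the WRKY57-related genes, exceeded 3 TPM in control stems only, so they entered the table through the group in which they were high. In bulk tissue a lower share of a cell type and less RNA per cell cannot be told apart. The summed level of the 28 green-tissue genes moved with treatment: its median was 7921, 5581, 4324 and 4360 TPM in control stems (*DD* and *dd* at 3 days, then *DD* and *dd* at 10 days) and 8220, 10110, 6234 and 7070 TPM in the matching decapitated stems. The 3 genes of the secondary wall and xylem list moved in no single direction with treatment. At 3 days their summed median was lower in decapitated than in control stems, at 392 against 594 TPM in *DD* and 734 against 756 TPM in *dd*. At 10 days it was higher, at 635 against 373 TPM in *DD* and 1306 against 534 TPM in *dd*. The part of these levels in the WRKY values was not tested.

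**Figure D1:**
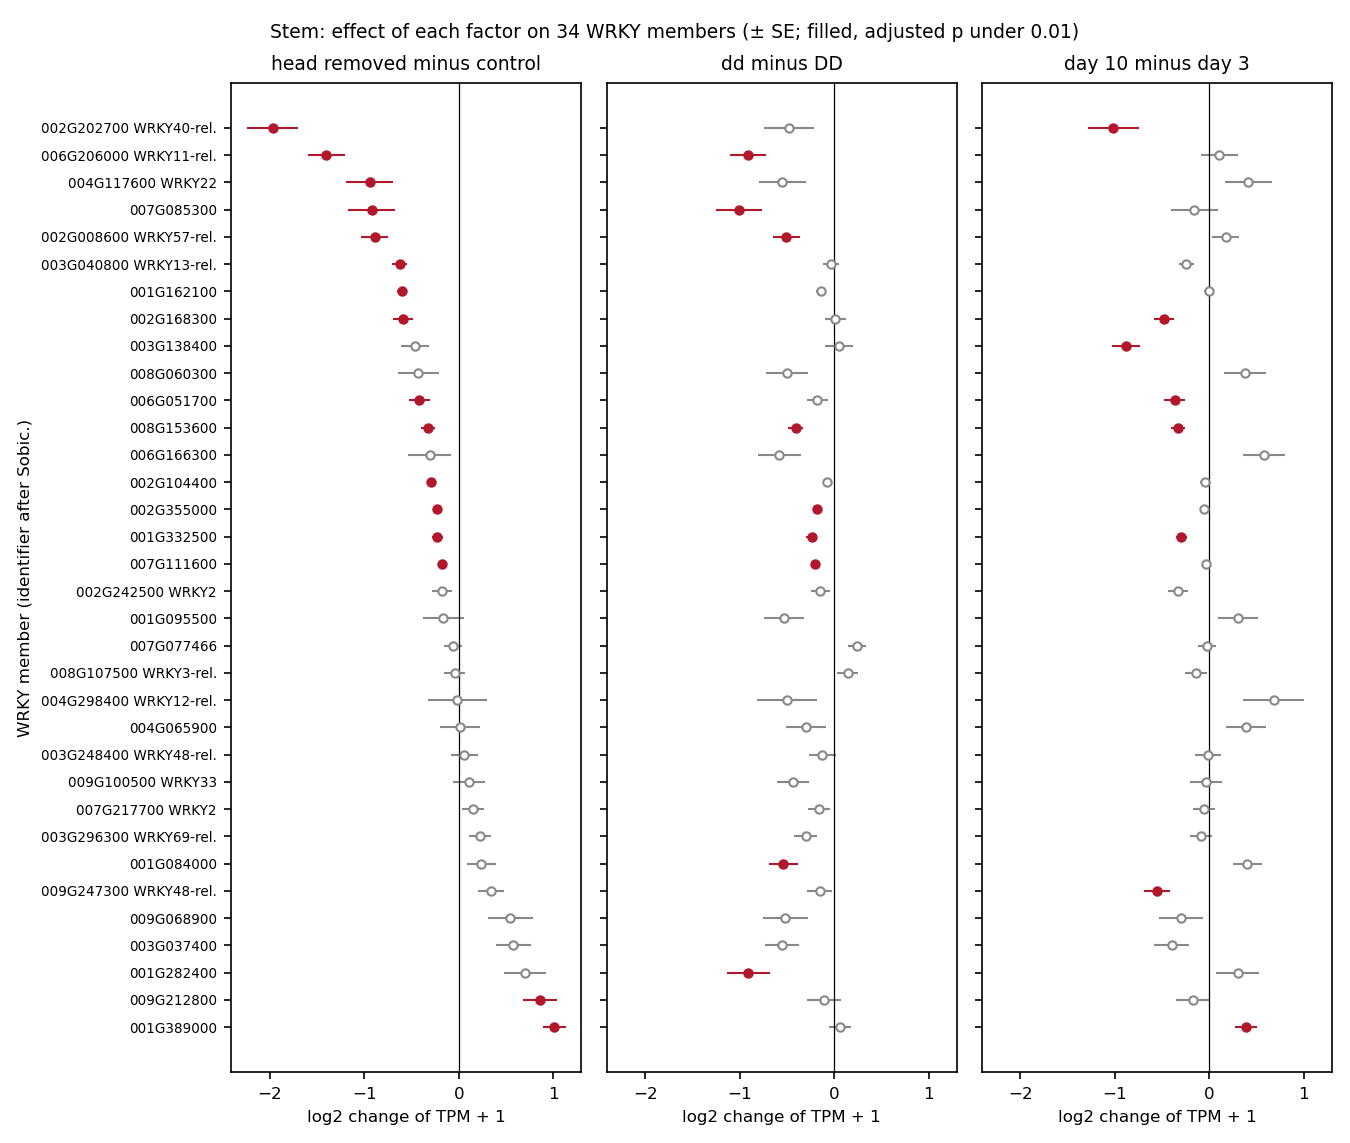
Log2 change of TPM + 1 (x axis) of the 34 stem members (rows, ordered by the effect of head removal) for head removal, genotype and day, with bars of ± 1 SE and filled points past an adjusted p of 0.01. Of the filled points, 14 lie below zero and 2 above for head removal, and 9 lie below zero for genotype.

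The largest fall was in the WRKY40-related Sobic.002G202700; Arabidopsis WRKY40 is an early response gene that acts in abscisic acid and pathogen signaling. Its TPM in control stems ran from 0.907 to 21.5 with a median of 3.75 (n = 15), and in decapitated stems from 0 to 2.24 with a median of 0.334 (n = 14). Levels were highest in the intact *DD* stems at 3 days, where 3 of 4 replicates held 15.1, 21.5 and 20.2 TPM and replicate 1 held 2.88 TPM. All 7 decapitated stems at 10 days were under 1 TPM. The log2 change was -1.97 ± 0.27 (SE; limma adjusted p = 9.89e-07), and it also fell from day 3 to day 10, by 1.02 ± 0.27 on the log2 scale (limma adjusted p = 0.00302).

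The WRKY11-related Sobic.006G206000, whose Arabidopsis namesake is a negative regulator of basal defense, fell from a mean of 92.7 to 37.1 TPM. Control stems ranged from 31.0 to 150 TPM with a median of 99.0, and decapitated stems from 15.0 to 97.7 TPM with a median of 33.8. The change was -1.40 ± 0.19 on the log2 scale (limma adjusted p = 1.29e-06). The overlap came from few libraries. In *dd* control stems at 10 days, the replicates that stood apart held 31.0 and 32.7 TPM, and the other pair held 150 and 99.0 TPM; in the *DD* decapitated stems at 10 days, replicate 4 held 97.7 TPM and the rest 43.1 and 41.4 TPM. Without the pair that stood apart the change was -1.59.

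The most abundant member, the WRKY13-related Sobic.003G040800, fell from 144 to 93.8 TPM. It ranged from 124 to 170 TPM in control stems (median 146) and from 62.4 to 130 TPM in decapitated stems (median 96.8), so that only the top of the decapitated range reached the controls. Its log2 change was -0.63 ± 0.08 (limma adjusted p = 3.93e-07). Here the 2 *dd* control libraries that stood apart, at 150 and 125 TPM, lay within the range of the other controls.

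All 4 members described by the zinc cluster domain had lower means after head removal, and 3 of them fell. Of all stem genes 23.5% fell, and 40.7% had a positive change. With so few members, nothing is read from that count. Sobic.001G162100 was the only member whose treatment groups did not overlap, as was true of 1.09% of all stem genes. It lay between 29.5 and 40.1 TPM in the 15 control stems and between 18.5 and 28.5 TPM in the 14 decapitated stems, with a log2 change of -0.61 ± 0.05 (limma adjusted p = 6.83e-10). Sobic.007G085300 fell by 0.92 ± 0.25 and Sobic.008G153600 by 0.33 ± 0.08 on the log2 scale. Sobic.001G095500, the second most abundant member, did not pass the test, at -0.16 ± 0.21 (limma adjusted p = 0.539).

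Among the NB-ARC members, Sobic.002G168300, which also carries a NAM domain, the DNA-binding domain of NAC factors, fell by 0.59 ± 0.11 on the log2 scale, and Sobic.006G051700 fell by 0.42 ± 0.11. Sobic.002G104400, named after its values were seen, fell by 0.30 ± 0.05. The disease resistance related Sobic.001G282400 moved the other way, from 23.4 to 38.3 TPM, and missed the threshold (0.70 ± 0.23, limma adjusted p = 0.0117). The other members that fell were the WRKY22 gene Sobic.004G117600, a factor downstream of a MAP kinase cascade in Arabidopsis (4.14 to 1.76 TPM, -0.94 ± 0.25), the WRKY57-related Sobic.002G008600 (2.69 to 0.968 TPM, -0.89 ± 0.14), and 3 unnamed members with falls of 0.18 to 0.23: Sobic.002G355000, Sobic.001G332500 and Sobic.007G111600. Arabidopsis WRKY57 is known for a role in jasmonate-induced leaf senescence.

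The 2 members that rose have a WRKY domain alone. Sobic.001G389000 rose from a mean of 17.9 to 38.0 TPM. Control stems lay between 9.66 and 26.1 TPM with a median of 18.7, and decapitated stems between 20.9 and 54.1 TPM with a median of 37.7, so the groups overlapped little. Its change was 1.01 ± 0.12 on the log2 scale (limma adjusted p = 1.09e-07). Sobic.009G212800 rose from 3.59 to 7.61 TPM (0.86 ± 0.18, limma adjusted p = 0.000266), and the *dd* decapitated stems at 3 days held 10.5, 19.2 and 7.26 TPM, the first pair above every other stem.

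**Figure D2:**
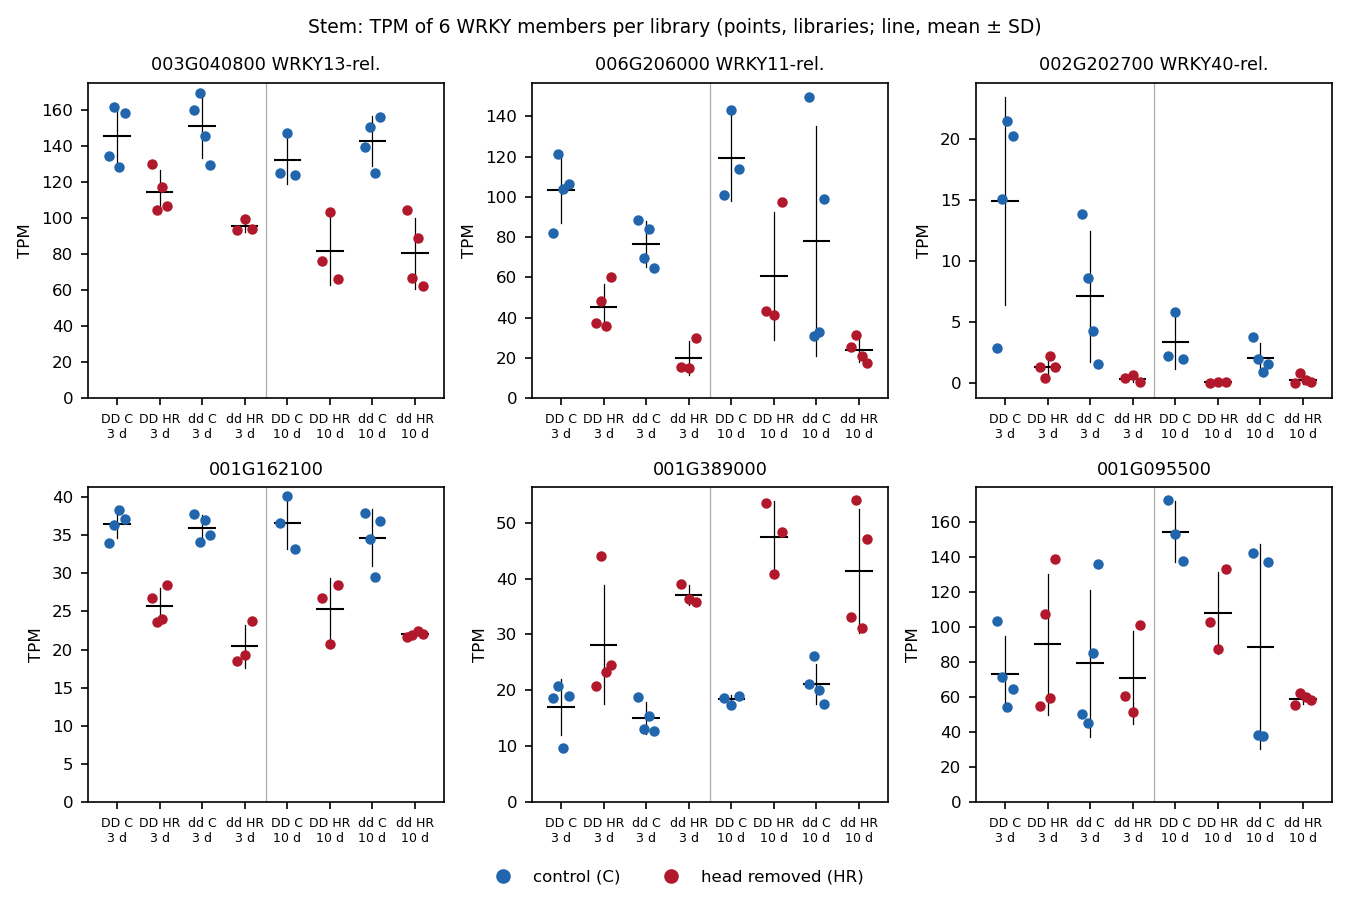
TPM (y axis, from 0) of 6 stem members in each library, by genotype, treatment (C, control; HR, head removed) and day, with lines for the mean ± SD of each group. Sobic.001G162100 separates all 15 control from all 14 decapitated stems, while Sobic.001G095500 and the WRKY11-related gene show 2 low *dd* controls at 10 days.

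Within each genotype and day more members fell than rose. The number of members that fell was 2 in *DD* at 3 days, 5 in *DD* at 10 days, 6 in *dd* at 3 days and 5 in *dd* at 10 days, against 0.714, 7.69, 5.91 and 7.87% of all genes. Rises were found in 0, 1, 2 and 1 members, against 0.761, 3.55, 4.66 and 6.63% of all genes. The falls at 3 days include the WRKY40-related gene, which like the WRKY57-related gene entered the table through control stems. Nothing is read from these shares. Sobic.001G162100 fell in all 4 comparisons. The WRKY40-related gene fell by 2.57 ± 0.49 in *DD* and by 2.29 ± 0.53 in *dd* at 3 days on the log2 scale (limma adjusted p = 0.00327 and 0.00353); at 10 days its changes were -1.93 ± 0.56 and -1.19 ± 0.49 and did not pass. The WRKY57-related gene gave the reverse order, with falls of 1.54 ± 0.26 in *DD* and 1.21 ± 0.22 in *dd* at 10 days.

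No member passed a test of an interaction in stems. The percentages of all genes that did were 0 for treatment by genotype, 0.0472 for treatment by day and 0.0059 for genotype by day. At an unadjusted p under 0.05 by limma the members numbered 2, 4 and 1. Shares of all genes at that level were not taken, and nothing is read from these counts. The smallest unadjusted p was for treatment by day in the WRKY57-related gene, whose change was 0.89 ± 0.24 lower at 10 days on the log2 scale (interaction of -0.89, limma adjusted p = 0.0755). Without the pair of stem libraries that stood apart, this gene passed the treatment by day test (-1.14 ± 0.19, limma adjusted p = 0.00296), and no other member did.

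Between genotypes, 9 of the 34 stem members differed, each lower in *dd*. These make 26.5% of members, against 12.7% of all genes lower and 5.17% higher. At an unadjusted p under 0.05, 1 member was higher by limma, and the share of all genes at that level was not taken. The members' median log2 difference was -0.27 and that of all genes -0.06. A positive value was found in 5 of 34 members, against 37.3% of all genes. With median-of-ratios scaling the count of 9 became 5. The calls of Sobic.001G084000, Sobic.001G332500, Sobic.002G008600 and Sobic.002G355000 were lost under that scaling and under quantile normalization. The summed level of the 3 genes of the secondary wall and xylem list had a higher median in *dd* in each matched pair of groups. At 3 days it was 756 against 594 TPM in controls and 734 against 392 TPM in decapitated stems. At 10 days it was 534 against 373 TPM in controls and 1306 against 635 TPM in decapitated stems. Its part in the genotype values was not tested.

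The largest genotype differences were in Sobic.007G085300 (10.5 TPM in *DD*, 5.70 in *dd*; -1.01 ± 0.25), Sobic.006G206000 (81.1 and 51.6 TPM; -0.91 ± 0.19) and Sobic.001G282400 (40.3 and 21.5 TPM; -0.91 ± 0.23), with limma adjusted p of 0.00337, 0.00113 and 0.00393. For Sobic.006G206000, *DD* stems ranged from 36.0 to 143 TPM (median 89.8) and *dd* stems from 15.0 to 150 TPM (median 31.5), so the groups overlapped over most of the range. Without the 2 *dd* controls that stood apart, 7 members were lower and the 3 differences were -0.86, -0.75 and -0.74, all past the threshold. Sobic.001G084000 (-0.54) and the WRKY57-related gene (-0.51) lost the call without them, at limma adjusted p of 0.0245 and 0.0239, and also when any of 21 or 20 single libraries was left out. The other 4 were Sobic.008G153600 (-0.41 ± 0.08), Sobic.001G332500 (-0.24), Sobic.007G111600 (-0.20) and Sobic.002G355000 (-0.19). Most of these calls were not made within a single day: 1 member passed in the day 3 libraries alone and 0 in those of day 10, where each fit holds fewer libraries.

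From day 3 to day 10, 7 stem members fell and 1 rose (20.6 and 2.94% of members), against 23.7% of all genes that fell and 8.84% that rose. Beside the WRKY40-related gene, Sobic.003G138400 fell most, from 5.33 to 2.54 TPM, by 0.88 ± 0.15 on the log2 scale (limma adjusted p = 4.05e-05). It ranged from 3.40 to 8.62 TPM on day 3 and from 0.670 to 4.93 TPM on day 10. The WRKY48-related Sobic.009G247300, whose Arabidopsis namesake represses basal defense, fell from 17.0 to 11.0 TPM (-0.56 ± 0.14). Sobic.002G168300, Sobic.006G051700, Sobic.008G153600 and Sobic.001G332500 fell by 0.30 to 0.48 on the log2 scale. The call of Sobic.006G051700 was lost without any of 11 single libraries, under median-of-ratios scaling and under quantile normalization. The rise of Sobic.001G389000 (0.39 ± 0.12, limma adjusted p = 0.00885) lost the call when any of 18 single libraries was left out. The call was also lost with array weights and without the pair of *dd* controls that stood apart (0.36, limma adjusted p = 0.0207).

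In leaves, head removal changed few WRKY transcripts: 2 of 44 rose and none fell, against 4.32% of all genes that rose and 7.05% that fell. A lower value at an unadjusted p under 0.05 by limma was found in 5 members. The share of all genes at that level was not taken. Sobic.001G084000 rose from 9.83 to 19.6 TPM, a change of 1.01 ± 0.27 on the log2 scale (limma adjusted p = 0.00913). Control leaves ran from 2.53 to 24.1 TPM and decapitated leaves from 6.38 to 39.7 TPM, with medians of 7.65 and 19.2 TPM and a wide overlap. Sobic.003G337900 rose from 0.771 to 2.13 TPM (0.71 ± 0.18, limma adjusted p = 0.00660), and it exceeded 3 TPM only in the *DD* decapitated leaves at 3 days, through which it entered the table. Neither call remained without all 3 of those libraries or without replicates 2 and 3 of them, and they were lost without any of 15 (Sobic.001G084000) or 9 (Sobic.003G337900) single libraries.

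That group differed from all others in several members. Sobic.004G065900 held 124, 269 and 215 TPM in the 3 *DD* decapitated leaves at 3 days and 14.3 to 56.4 TPM in the other 21 libraries. Of the 44 members, 5 were higher in all 3 of these libraries than in every other leaf library, as were 2.00% of all leaf genes. They were Sobic.004G065900, the WRKY33 gene Sobic.009G100500 (21.5, 66.5 and 35.3 TPM, against at most 20.3), Sobic.010G209100 (2.86, 9.74 and 12.0 TPM, against at most 1.85), Sobic.003G337900 (3.04, 6.24 and 4.02 TPM, against at most 2.32) and Sobic.008G153600 (at least 15.4 TPM, against at most 12.0). Arabidopsis WRKY33 is a regulator of the response to necrotrophic fungi. Sobic.009G100500 and Sobic.010G209100 were named after their values were seen, and 2 of the 5 entered the table through this group.

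Within *DD* at 3 days, 3 members passed the test of head removal and rose, 6.82% of members against 0.622% of all genes, and none fell, against 0.159%. Since 2 of the 3, Sobic.010G209100 and Sobic.003G337900, exceeded 3 TPM only in these decapitated leaves, through which they entered the table, nothing is read from that share. Sobic.004G065900 rose by 2.47 ± 0.40 on the log2 scale (limma adjusted p = 0.00254), Sobic.010G209100 by 2.07 ± 0.41 (limma adjusted p = 0.00967) and Sobic.003G337900 by 1.38 ± 0.26 (limma adjusted p = 0.00654). In the other 3 groups no member passed in either direction, and 0.0061% of all genes rose in *dd* at 3 days with 0% in each of the 5 remaining counts. There Sobic.004G065900 changed by 0.03 ± 0.40 in *dd* at 3 days, by 0.07 ± 0.40 in *DD* at 10 days and by 0.41 ± 0.40 in *dd* at 10 days. The interactions were nevertheless not past the threshold: 0 members and 0% of all genes were called for treatment by genotype, treatment by day or genotype by day. At an unadjusted p under 0.05 by limma the members numbered 5, 8 and 3. The shares of all genes at that level were not taken, so nothing is read from these counts.

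Summed over the 44 members, WRKY transcripts in these 3 libraries reached 675, 1093 and 898 TPM, and 418 to 811 TPM in the other leaves. The sum of 675 TPM lay within that range. Sobic.004G065900 alone held 124, 269 and 215 TPM of these sums, so they are not read as a rise of the family. Transcripts of VQ-motif proteins, small partners of WRKY factors, summed to 150, 346 and 247 TPM over 12 genes, against 65.7 to 156 TPM. The sum of 150 TPM again lay within the range of the others. The JAZ sums given above were the ground on which these libraries were taken as standing apart, so they add nothing here. Heat shock transcripts (67 genes) were at 8918, 8749 and 7601 TPM, within the 4964 to 14136 TPM of the others. Pathogenesis-related and salicylate genes (1035, 1726 and 591 TPM over 25 genes, against 460 to 5852 TPM) were within the range of the others as well. The part of any of these in the WRKY values was not tested.

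**Figure D3:**
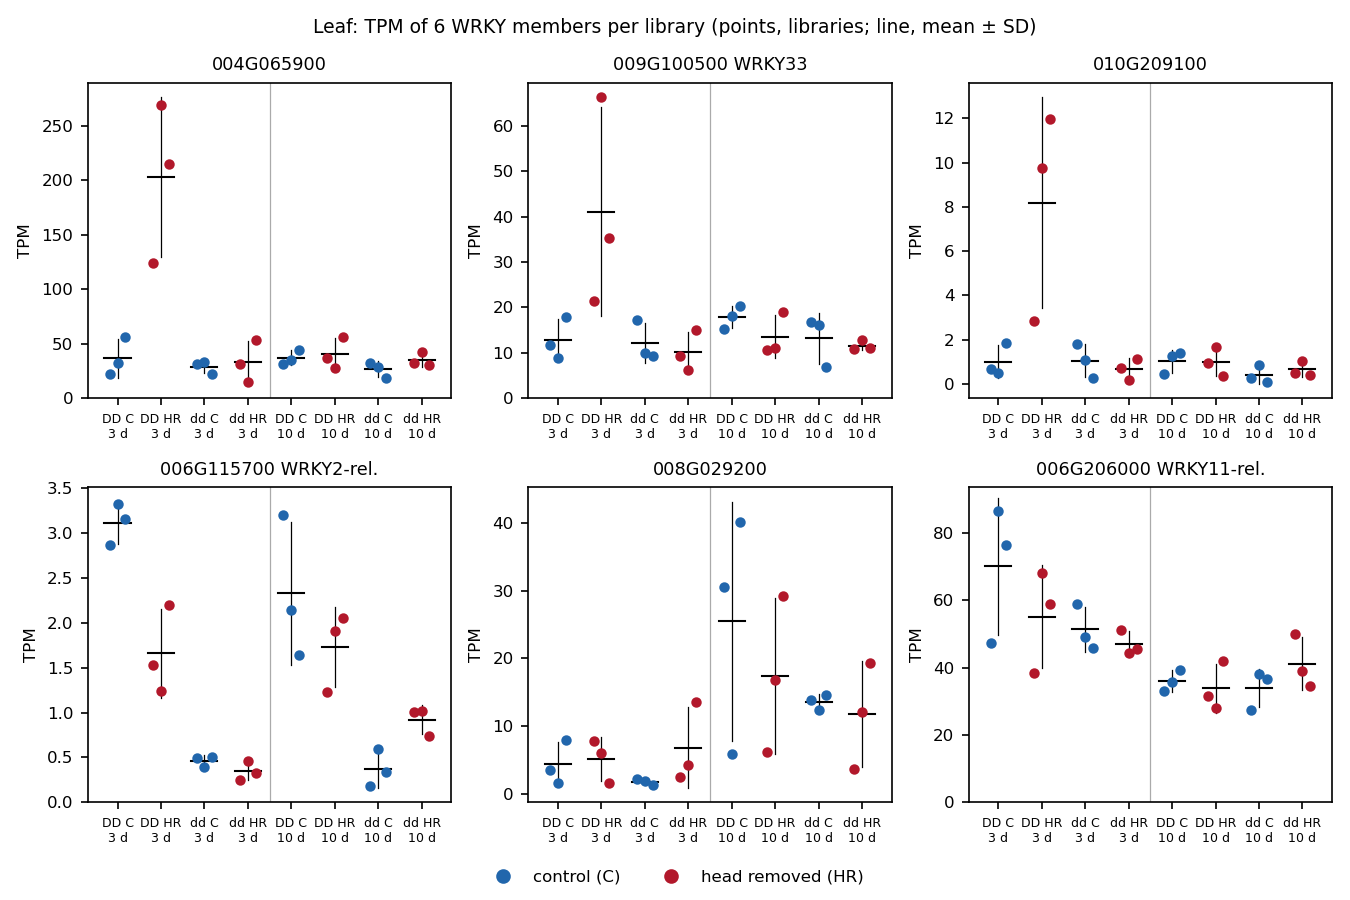
TPM (y axis, from 0) of 6 leaf members in each library, by genotype, treatment (C, control; HR, head removed) and day, with lines for the mean ± SD of each group. The *DD* decapitated leaves at 3 days hold 124 to 269 TPM of Sobic.004G065900, above every other leaf, and the WRKY2-related Sobic.006G115700 is higher in all 12 *DD* than in all 12 *dd* leaves.

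Between genotypes 1 leaf member differed, the WRKY2-related Sobic.006G115700, against 0.738% of all genes lower and 4.7% higher in *dd*. It lay between 1.23 and 3.33 TPM in the 12 *DD* leaves and between 0.185 and 1.02 TPM in the 12 *dd* leaves, with no overlap, as for 0.0854% of all leaf genes. The log2 difference was -1.06 ± 0.13 (limma adjusted p = 2.78e-05). It exceeded 3 TPM only in *DD* control leaves, through which it entered the table. As in stems, most members had lower values in *dd*, with 9 of 44 positive, against 55.8% of all genes. Their median was -0.16, against 0.03 for all genes. At an unadjusted p under 0.05 by limma, 16 were lower and 1 was higher. The share of all genes at that level was not taken, so nothing is read from this count. These counts include the 3 *DD* decapitated leaves at 3 days. Among the genes that missed the threshold were Sobic.004G065900 (79.2 TPM in *DD* and 30.7 in *dd*, -0.90, limma adjusted p = 0.0455; 38.0 TPM in the 9 *DD* leaves other than the decapitated ones at 3 days, -0.33, limma adjusted p = 0.307) and, in the other direction, the WRKY57-related Sobic.002G008600 (3.25 and 5.05 TPM, 0.54 ± 0.18, limma adjusted p = 0.0431).

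From day 3 to day 10, 4 leaf members rose and 2 fell, against 17.8% of all genes that rose and 3.69% that fell. Sobic.008G029200 rose most, from 4.50 to 17.1 TPM (1.71 ± 0.35, limma adjusted p = 0.000816). It lay between 1.31 and 13.6 TPM on day 3, with a median of 3.00, and between 3.68 and 40.1 TPM on day 10, with a median of 14.2. Its close neighbour in the numbering, Sobic.008G029000, rose from 1.99 to 4.34 TPM (0.79 ± 0.19), and Sobic.001G084000 (0.96 ± 0.27) and Sobic.009G034800 (0.61 ± 0.16) rose as well. Sobic.009G034800 exceeded 3 TPM on day 10 only. The WRKY11-related gene fell from 55.8 to 36.2 TPM (-0.59 ± 0.12, limma adjusted p = 0.000681) and Sobic.008G153600 from 12.1 to 8.34 TPM (-0.46 ± 0.12). Without all 3 *DD* decapitated leaves at 3 days, 3 members were called by day. The calls of Sobic.008G029000, Sobic.009G034800 and Sobic.008G153600 were then lost, at limma adjusted p of 0.0121, 0.0453 and 0.0541. That of Sobic.001G084000 was lost without any of 15 single libraries and under both other scalings, and that of Sobic.009G034800 under quantile normalization.

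**Figure D4:**
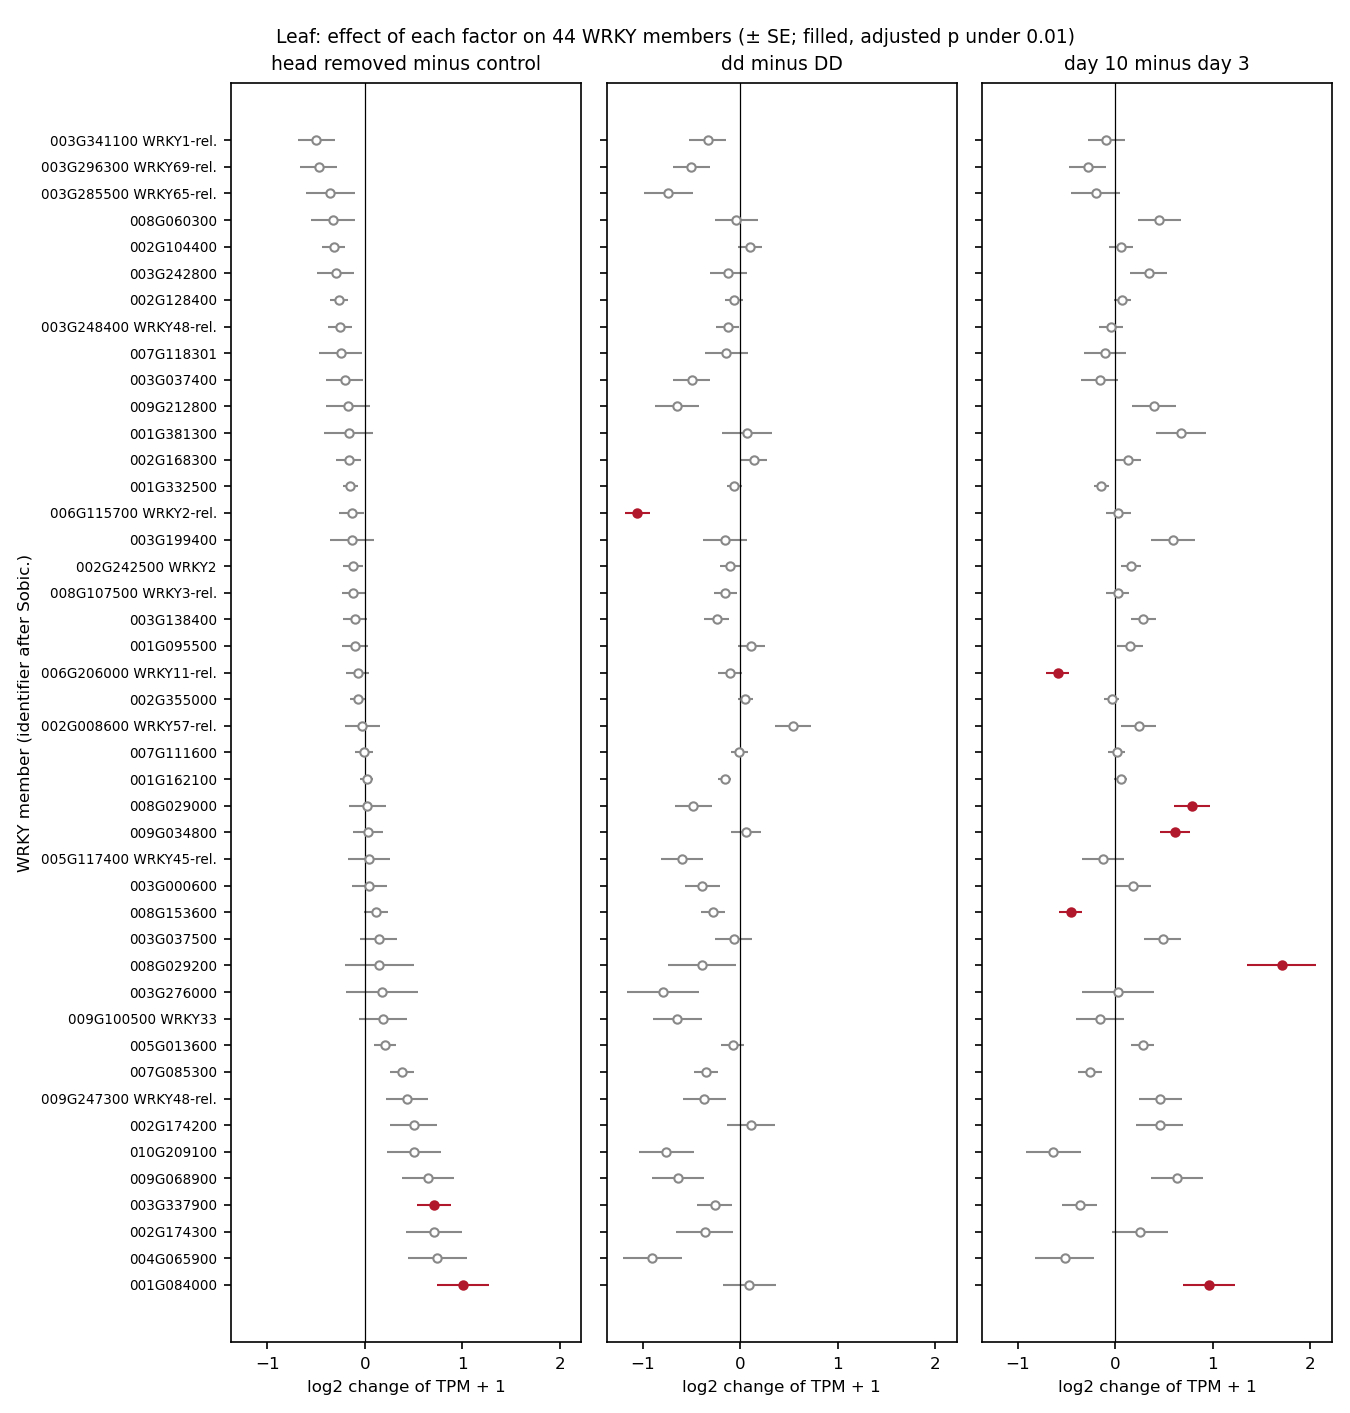
Log2 change of TPM + 1 (x axis) of the 44 leaf members (rows, ordered by the effect of head removal) for head removal, genotype and day, with bars of ± 1 SE and filled points past an adjusted p of 0.01. Few points are filled: 2 for head removal, 1 for genotype and 6 for day.

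The 24 members in both tables allowed the organs to be compared. The difference of stem and leaf effects was tested against its standard error, as if the organs were independent, and adjusted over 14496 genes. For head removal, 7 of 24 differed, 29.2% against 24.1% of all shared genes. For genotype 2 differed, 8.33% against 12.9%, and for day 5 differed, 20.8% against 30.9%.

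For head removal the largest differences were in Sobic.006G206000, which changed by -1.40 in stems and -0.07 in leaves (difference -1.33 ± 0.23), and in Sobic.007G085300, at -0.92 and 0.38 (difference -1.30 ± 0.28). Sobic.001G162100, with non-overlapping stem groups, changed by 0.02 in leaves (difference -0.63 ± 0.08), and the WRKY57-related gene by -0.02 (difference -0.87 ± 0.23). Sobic.008G153600 also had the lower change in stems, by 0.44 ± 0.14. In the other direction, Sobic.009G212800 changed by 0.86 in stems and -0.17 in leaves (difference 1.03 ± 0.29), and the WRKY69-related Sobic.003G296300 by 0.22 and -0.47 (difference 0.69 ± 0.22). The calls of Sobic.008G153600 and Sobic.003G296300 were lost without the libraries that stood apart, and without any of 31 and 24 single libraries.

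The genotype difference of the WRKY57-related gene had opposite signs in the organs, -0.51 in stems and 0.54 in leaves (difference -1.05 ± 0.23, adjusted p = 0.000172 by the z test on the limma estimates). That of the WRKY11-related gene was -0.91 and -0.10, a difference of -0.81 ± 0.23 that lost its call without the libraries that stood apart (-0.63). It kept the call without all 3 *DD* decapitated leaves at 3 days (-0.79). For day, Sobic.003G138400 (-0.88 in stems, 0.29 in leaves), the WRKY48-related Sobic.009G247300 (-0.56 and 0.46), Sobic.002G168300 (-0.48 and 0.13) and the WRKY2 gene Sobic.002G242500 (-0.33 and 0.16) had lower values in stems, of which Sobic.002G242500 lost its call without the libraries that stood apart. The WRKY11-related gene had the higher one (0.11 and -0.59), a call lost without any of 20 single libraries.

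**Figure D5:**
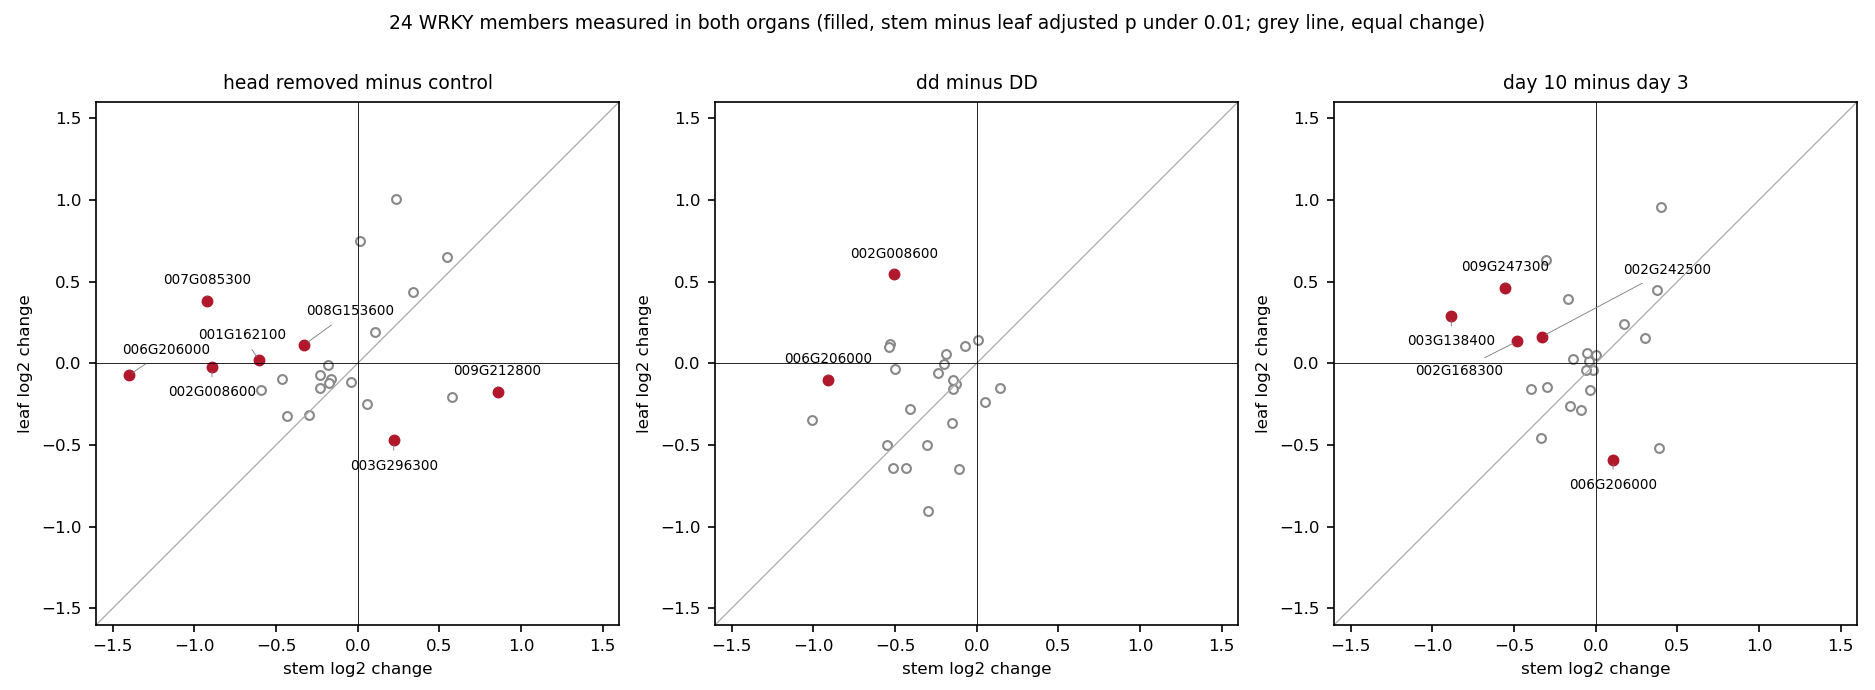
Log2 change in stems (x axis) against leaves (y axis) of the 24 members measured in both organs, for head removal, genotype and day, with filled points where the organs differed at an adjusted p under 0.01. For head removal, the filled points are spread along the stem axis from -1.40 to 0.86, while in leaves the same members lie between -0.47 and 0.38.

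Genes that act with WRKY factors were counted from lists of descriptions. Of all genes, 23.5% fell and 14.4% rose in stems after head removal, and several lists lie near or under these shares. In stems after head removal, 5 of 13 VQ-motif genes fell and 0 rose (median log2 change -0.22), and 12 of 33 MAP kinase cascade genes fell and 1 rose (median -0.12). Of 40 calmodulin genes 14 fell and 3 rose (median -0.12), and of 7 JAZ genes 5 fell and 0 rose (median -0.40), beside a median of -0.06 for all genes. Of the defense outputs, 6 of 22 pathogenesis-related and salicylate genes fell and 2 rose (median 0.06). Among chitinase and beta-1,3-glucanase genes, 6 of 34 fell and 8 rose (median 0.02). Nothing is read from these shares. In *dd* stems, 3 of 13 VQ-motif genes (median -0.25) and 5 of 22 pathogenesis-related and salicylate genes (median -0.36) were lower, and 0 and 1 were higher. Lower and higher were 6 and 0 of 33 MAP kinase cascade genes (median -0.12) and 5 and 1 of 40 calmodulin genes (median -0.10). They were 1 and 0 of 7 JAZ genes (median -0.02) and 3 and 1 of 34 chitinase and beta-1,3-glucanase genes (median -0.21). Of all genes, 12.7% were lower and 5.17% higher, with a median of -0.06. In leaves after head removal no gene of the VQ-motif list (12 genes, median 0.30) or of the JAZ list (14 genes, median 0.94) passed the test. None of 25 pathogenesis-related and salicylate genes passed either (median 0.08). Rises and falls were 0 and 4 of 33 MAP kinase cascade genes and 3 and 2 of 40 calmodulin genes. They were 2 and 3 of 30 chitinase and beta-1,3-glucanase genes and 16 and 2 of 67 heat shock genes. Of all genes 4.32% rose and 7.05% fell, with a median of -0.02.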

How the data were processed

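RNA was extracted from stems and leaves with TRIzol, libraries were made with the KAPA mRNA HyperPrep kit and sequenced on an Illumina NovaSeq instrument. The labels name FastQC, Trimmomatic, STAR and DESeq2, without versions; the genome build is not given in the sources used here. The authors deposited 1 TPM column for each of the 53 libraries used here and kept genes that exceeded 3 TPM in 2 or more samples of an organ. Their own comparisons (fold changes and p-values), clusters and overlaps were not used. Read counts and depth are unknown here, and precision rests on the spread between replicates.

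Each organ was fitted with limma 3.58.1 (trended variance) in R 4.3.3 on log2(TPM + 1), in an additive model of the 3 factors. Effects within groups and interactions came from a model of 8 group means. The Benjamini-Hochberg adjustment covered every gene of the table, and a call is an adjusted p under 0.01. A fold change on this scale understates changes of low genes. The fit was tested on simulated data. Members, lists, named genes and alternatives were chosen with earlier results of these data known. Named were, per organ and factor, up to 10 called members with the largest rise and fall, the 8 highest by mean TPM, and every member past an interaction or stem-minus-leaf test. Of the identifiers, 0 matched the RefSeq table given, so no sequence is shown. Alternatives were quantile normalization or median-of-ratios scaling, array weights, an untrended variance, a pseudocount of 0.1 or 3, genes at a mean of 10 TPM or more, group means, a replicate block, other thresholds, leaving out libraries, and, added after seeing the data, single days and all *DD* decapitated leaves at 3 days left out. Figures were drawn with matplotlib 3.10.9 in Python 3.11.15.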

Additional observations from a re-analysis of the deposited data

Results flagged for a closer look

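In 10 of 110 stem groups of 4 libraries examined for named members, 1 library lay far from the other 3; chance gives about 1 in 20. In *DD* decapitated stems at 3 days these were replicate 2 of Sobic.001G389000 (44.0 TPM, against 20.9 to 24.6) and of Sobic.009G212800 (9.31 TPM, against 5.59 to 5.89), and replicate 1 of Sobic.002G242500 (29.4 TPM, against 19.0 to 20.7). In *dd* decapitated stems at 10 days they were replicate 1 of Sobic.001G282400 (21.3 TPM, against 31.5 to 32.8) and of Sobic.002G008600 (0.417 TPM, against 0.639 to 0.666), and replicate 2 of Sobic.006G051700 (5.01 TPM, against 5.60 to 5.66). In *DD* control stems at 3 days replicate 1 stood out for Sobic.001G332500 (22.6 TPM, against 18.8 in each of the others) and Sobic.002G168300 (21.3 TPM, against 33.1 to 34.0). In *dd* controls it was replicate 2 at 10 days for Sobic.002G168300 (25.4 TPM, against 22.3 to 22.5) and replicate 1 at 3 days for Sobic.002G242500 (32.6 TPM, against 18.8 to 20.4).

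The effect of a factor differed between stem and leaf in 14 cases, by the test of the difference. For head removal the stem minus leaf values were -1.33 in Sobic.006G206000, -1.30 in Sobic.007G085300, -0.87 in Sobic.002G008600, -0.63 in Sobic.001G162100, -0.44 in Sobic.008G153600, 0.69 in Sobic.003G296300 and 1.03 in Sobic.009G212800. For genotype they were -0.81 in Sobic.006G206000 and -1.05 in Sobic.002G008600. For day they were -1.17 in Sobic.003G138400, -1.02 in Sobic.009G247300, -0.62 in Sobic.002G168300, -0.49 in Sobic.002G242500 and 0.70 in Sobic.006G206000.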

How the results depend on the processing

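The stem count of 16 members called by head removal stayed between 16 and 18 when each library was left out; the leaf count of 2 ran from 0 to 2, and it fell below 2 without any of 17 of the 24 single libraries. No value called by a factor or by stem minus leaf changed sign. Named values without a call, and interactions, were not checked for sign. Of 574 called values under other alternatives 478 kept their call and 96 lost it, and of 1915 with 1 library left out 187 lost it. Counts that moved by over 1.5 times were: with a pseudocount of 3, leaf treatment 1; with a mean of at least 10 TPM, stem treatment 10, stem day 5, leaf treatment 1, leaf genotype 0 and stem minus leaf 3, 1 and 2 for treatment, genotype and day, from fewer genes tested; with median-of-ratios scaling, stem genotype 5 and stem minus leaf genotype 1 and day 3; with quantile normalization, leaf treatment 1; with 8 group means, leaf treatment 1 and leaf genotype 2. Without the libraries that stand apart they were stem treatment by day 1, leaf treatment 0 and stem minus leaf genotype 1. Under a change of at least 1 log2 unit they were 3, 1 and 1 for stem treatment, genotype and day and 1 each for leaf treatment and leaf day; under an adjusted p of 0.05, stem genotype 14, leaf treatment 4, leaf genotype 4 and stem minus leaf genotype 4. Without the *DD* decapitated leaves at 3 days they were leaf treatment 0 and leaf day 3; on day 3 alone stem treatment 8, stem genotype 1 and leaf treatment 0; on day 10 alone stem treatment 7, stem genotype 0, leaf treatment 0 and leaf genotype 0. The cause was not tested except where fewer genes or libraries were fitted.

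With the replicate block, leaf treatment gave 1 and leaf genotype 2, and no other count moved by over 1.5 times (stem treatment was 17). Both leaf treatment calls were lost and the 1 made was Sobic.007G085300, which was also the added leaf genotype call; the stem genotype calls of Sobic.001G084000 and Sobic.002G008600, the stem day calls of Sobic.001G389000 and Sobic.006G051700, the leaf day call of Sobic.009G034800 and the stem minus leaf day call of Sobic.006G206000 were lost. Same-numbered samples did not deviate together on the median. The median correlation over 91 stem pairs was -0.0146 (range -0.598 to 0.541). Over 60 leaf pairs it was -0.0595 (range -0.505 to 0.683). The numbers were not taken to pair the samples. Median-of-ratios scaling shifted the median of all genes by over 0.1 for leaf day alone, by -0.10; the members' median for day then changed sign in leaves (0.07 to -0.03) and in stems (-0.05 to 0.03).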

Other observations

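The WRKY2-related Sobic.006G115700, lower in *dd* leaves, has an identifier on chromosome 6, the chromosome of the D locus. Of 318 leaf genes with identifiers from 006G100000 to 006G160000, 18.9% were called by genotype in leaves, against 5.17% of the 16068 other genes, and in stems 32.3% of 334 against 17.5% of 16608. The range was chosen after the values were seen and was not tested.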
